A study of Rattus norvegicus with 15 samples.

Results

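Ion channel genes were followed in the adrenal medulla of wildtype and MENX rats. The genes were chosen by their gene names alone, with name patterns for the potassium (Kcn), sodium (Scn, Asic, Nalcn), calcium (Cacn, Ryr, Itpr, Orai, Stim), chloride (Clcn, Clic, Ano, Best), transient receptor potential (TRP) and other cation (Hcn, Piezo) families. Of the 8621 genes in any of the 3 deposited comparison tables, 122 matched, and 117 of these encode channel subunits or channel regulators. The other 5 (*Tmem160*, *Tmem161a*, *Tmem163*, *Tmem164* and *Tmem169*) share only the letters Tmem16 with a chloride channel family, encode no known channel and were kept out of every count. The 117 channel genes were 52 potassium (41 pore-forming), 12 sodium (9 pore-forming), 25 calcium (12 pore-forming), 11 chloride, 12 TRP and 5 other cation channel genes.

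Potassium channels hold the resting potential of a chromaffin cell and end each action potential, sodium channels start it, and calcium that enters through voltage-gated channels releases the catecholamine granules. Chloride channels and the mostly calcium-permeable TRP channels adjust the membrane potential and the calcium level more slowly. Accessory subunits carry no current themselves and set how many pore-forming subunits reach the membrane and how they gate.

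RNA of macrodissected adrenal medulla was sequenced in bulk, after poly-A selection, in 15 Sprague-Dawley rats, 5 in each of 3 groups. The groups were normal medulla of wildtype rats aged 7 to 9.5 months (WT), hyperplastic medulla of MENX rats aged 4 to 5 months (HYP) and pheochromocytoma of MENX rats aged 7 to 9.5 months (PCC). MENX rats carry a homozygous germline frameshift in *Cdkn1b*, which encodes the cell cycle inhibitor p27, so every cell of the animal carries it, and the study classed some of the PCC glands as advanced by their weight. HYP differed from WT in age as well as genotype, and from PCC in age as well as stage, and these cannot be told apart. The transcript of the frameshift gene itself, which says nothing of the protein, measured 72.1, 62.3, 52.4, 52.5 and 44.6 counts per 1e6 reads (CPM) in WT, 100.03, 124, 102, 82.5 and 99.5 in HYP and 173, 151, 131, 167 and 108 in PCC, listed like all later values from replicate 1 to replicate 5.

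Library totals recovered from the deposited values ran from 17723131 to 20972536 reads in WT, from 16315018 to 18839462 in HYP and from 17340695 to 23831269 in PCC. Each table held only genes that had passed the authors' own test in that comparison (7683 genes with PCC against WT, 4406 with HYP against WT and 3360 with PCC against HYP), so every share of genes called is a share of genes preselected on these samples and is to be read against the same share over all genes of the table. A gene was called at a Benjamini-Hochberg adjusted p under 0.05 from the quasi-likelihood test of edgeR (n = 5 per group throughout). Log2 fold changes are given ± their standard error, and values per sample are CPM on a scale common to the 15 samples where a gene had counts in all of them (82 of the 117), otherwise on the scale of the pair compared. The 3 comparisons share their samples in pairs, so their values stand side by side, are not independent of each other, and were not tested for a difference between comparisons.

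In PCC vs. WT, which compares tumor with normal medulla of like age, channel genes mostly rose. The calcium channel subunit *Cacna2d4* (6.03), the pacemaker channel *Hcn4* (4.61) and the potassium channel *Kcnq5* (4.37) had the largest log2 fold changes upward among the tested channel genes, and the leak channel *Kcnk5* and the cation channel *Trpv4* (both -3.20, and -4.02 and -4.50 without PCC replicate 5) the largest downward. Of 96 listed channel genes 7 had too few reads to test, and of the 89 tested 61 (68.5%) were higher, 18 (20.2%) lower and 10 not called. Over all 7001 genes tested there, 46.7% were higher and 38.5% lower, so the share called in either direction was 88.8% for channel genes and 85.2% for all genes. The median log2 fold change was 1.45 for channel genes (range -3.20 to 6.03) and 0.44 for all genes. PCC and WT samples did not overlap for 49 higher and 12 lower channel genes, and did not overlap for 66.2% of all genes tested. The 67 pore-forming subunits (46 higher, 15 lower, median 1.51) and the 22 accessory ones (15 higher, 3 lower, median 1.39) both held more higher than lower genes. In bulk tissue fewer cells of a type and less RNA per cell cannot be told apart.

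In HYP vs. WT, which compares the hyperplastic medulla of younger MENX rats with normal medulla, channel genes also mostly rose. *Cacna2d4* (5.18), the delayed rectifier *Kcnb2* (4.12) and *Kcnq5* (3.93) were at the upper end and *Kcnk5* (-2.13, and -2.81 without HYP replicate 1) and *Trpv4* (-2.03) at the lower. Of 72 listed channel genes 3 had too few reads to test, and of 69 tested 43 (62.3%) were higher, 11 (15.9%) lower and 15 not called, a total of 78.3% called. All 4108 genes tested gave 39.5% higher and 32.5% lower, 72.1% in all. The median was 1.23 for channel genes (range -2.13 to 5.18) and -0.37 for all genes (0.10 with the summed listed counts as the scale). The groups did not overlap for 45 channel genes on the higher and 9 on the lower side, and for 57.1% of all genes tested.

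In PCC vs. HYP, which compares tumor with hyperplasia, a smaller part of the listed channel genes was called. The G protein-gated channel *Kcnj3* (4.19, from 3.12 without PCC replicate 4 to 4.90 without HYP replicate 3), the acid-sensing channel *Asic1* (2.57) and the calcium channel subunit *Cacna2d2* (2.53) were higher in PCC, and the potassium channel *Kcnc2* (-1.69) and the cation channel *Trpv2* (-1.43) lower. Of 44 listed channel genes 4 had too few reads to test, and of 40 tested 13 (32.5%) were higher, 3 (7.5%) lower and 24 not called. The share called was 40.0% for channel genes and 44.4% for all 3148 genes tested, of which 21.8% were higher and 22.6% lower. The median was 0.85 for channel genes (range -1.90 to 4.19) and 0.43 for all genes, and the groups did not overlap for 13 channel genes on the higher and 5 on the lower side, against 51.6% of all genes tested. These calls depended on single samples, since leaving out 1 sample at a time gave between 5 (without HYP replicate 4) and 15 (without PCC replicate 1) higher and between 0 (without HYP replicate 3) and 6 (without PCC replicate 5) lower channel genes. Of the 16 genes called, 5 were called in all of those runs, among them *Asic1*, *Cacna2d2*, *Kcna5* and *Kcnn3*.

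The balance between higher and lower calls also moved with the scaling. Higher genes made up 77.2% of the channel genes called in PCC vs. WT, 79.6% of those in HYP vs. WT and 81.2% of those in PCC vs. HYP, and 88.0%, 96.1% and 92.9% with the summed listed counts as the scale. Among all genes called the share was 54.8%, 54.8% and 49.2%, and 76.3%, 89.3% and 68.4% with that scale. The shares of channel genes and of all genes came closer with that scale. A change of scale adds about the same amount to every log2 fold change of a comparison. The medians of channel genes and of all genes therefore moved alike by construction. The channel and all-gene medians went from 1.45 and 0.44 to 1.95 and 0.95 in PCC vs. WT. They went from 1.23 and -0.37 to 1.70 and 0.10 in HYP vs. WT, and from 0.85 and 0.43 to 0.99 and 0.57 in PCC vs. HYP. That scaling shifted the median of all genes by 0.51, 0.46 and 0.14 on the log2 scale in the same order, and scaling to the library totals shifted it by 0.30, 0.20 and 0.22 and gave 84.4% higher among the channel genes called in PCC vs. WT (68.9% among all genes called), 83.0% in HYP vs. WT (75.8%) and 93.8% in PCC vs. HYP (70.7%).

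**Figure D1:**
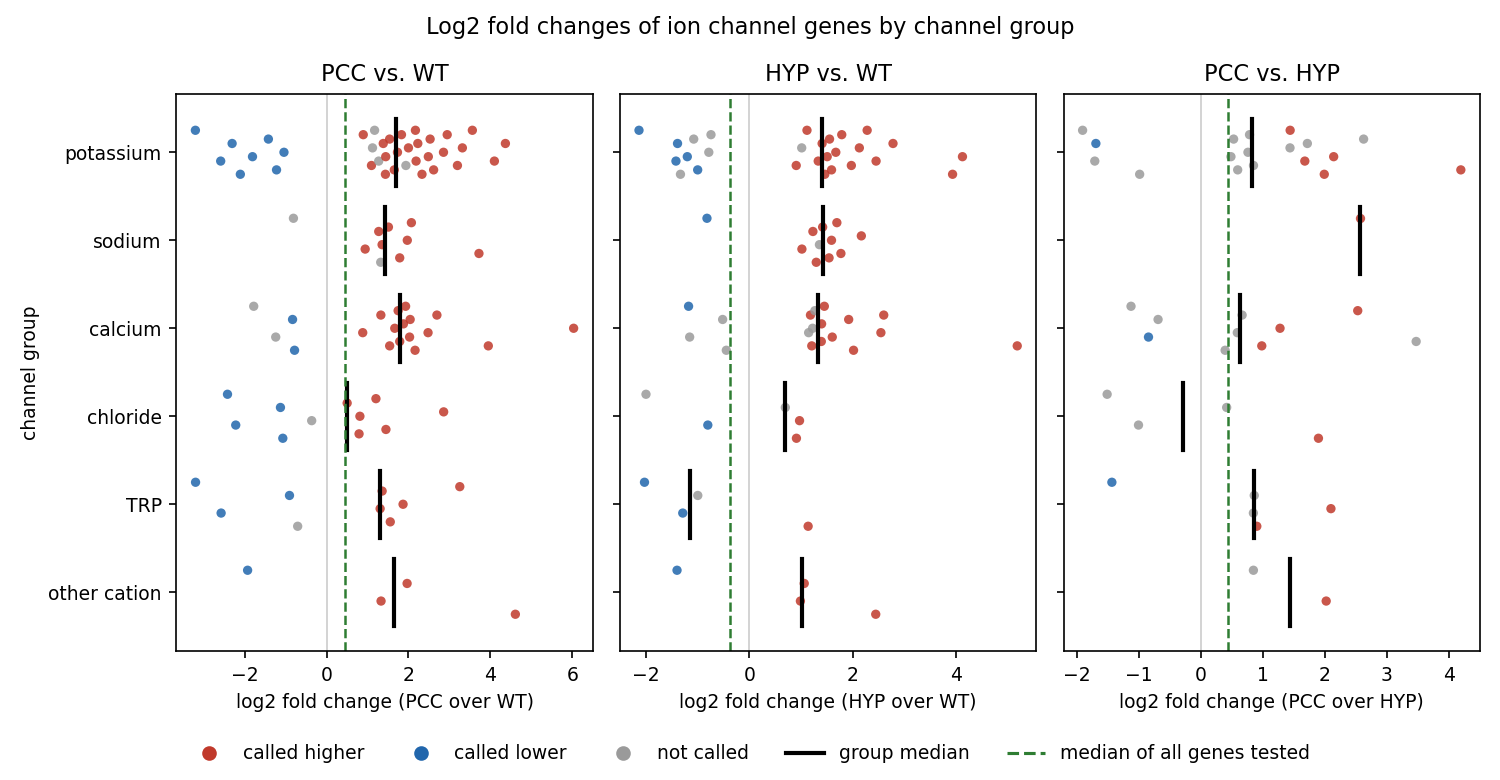
Each point is the log2 fold change of 1 tested channel gene, by channel group (vertical axis) in the 3 comparisons, colored by its call, with black bars for the group medians and a dashed line for the median of all genes tested. In PCC vs. WT the potassium, sodium and calcium medians (1.69, 1.43 and 1.79) lay well right of the median of all genes (0.44), and the chloride median (0.50) close to it.

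Markers of the cell types in the tissue moved with the groups. The lists hold 13 chromaffin and 14 cortex markers. Of these 9 and 10 were listed in PCC vs. WT, 7 and 7 in HYP vs. WT, and 8 and 5 in PCC vs. HYP. Listed markers were preselected like all listed genes, and *Pnmt*, *Chga*, *Chgb* and *Gata3* were not listed in PCC vs. WT. All 9 tested chromaffin markers were higher in PCC vs. WT (median 1.95, from 1.47 to 3.86), as were 6 of 7 in HYP vs. WT (median 1.33, from 0.92 to 1.87) and 2 of 8 in PCC vs. HYP (median 0.90). Of the channel genes 29 of 89, 32 of 69 and 17 of 40 had a larger log2 fold change than the chromaffin median of their comparison, and 5, 14 and 2 a larger one than the highest chromaffin marker. Adrenal cortex markers, which a dissected medulla can still hold, were lower for 8 of 10 in PCC vs. WT (median -2.43), and for 4 of 7 in HYP vs. WT (median -1.23), while the 5 tested in PCC vs. HYP were not called (median -1.63), and 4 of 89, 8 of 69 and 3 of 40 channel genes lay below those medians.

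Summed over the 9 chromaffin markers with counts in all samples, of which *Th* was the most abundant, WT held 7617, 9691, 6863, 5839.6 and 2034 CPM, HYP 15870.5, 14485, 11234, 12989 and 15526 and PCC 37208, 22484, 20594, 26876 and 19016. Summed over 8 cortex markers, led by *Cyp21a1*, WT held 19924, 21284, 33286, 43405 and 43935 CPM, HYP 17450.0, 9783, 25057, 17839 and 14207 and PCC 10494, 2402, 8566, 726 and 11775. WT replicate 5 thus had the lowest chromaffin and the highest cortex sum, and PCC replicates 2 and 4 had the lowest cortex sums. WT replicate 5 was also the lowest WT sample for 48 of the 61 channel genes higher in PCC vs. WT and for 30 of the 43 higher in HYP vs. WT. Without WT replicate 5 the channel medians were 1.30 in PCC vs. WT and 1.07 in HYP vs. WT. The part of cell composition in the channel changes was not tested.

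Of the other marker lists, sustentacular and Schwann markers were 4 higher and 2 lower of 6 tested in PCC vs. WT, neuronal markers 5 higher and 1 lower of 6, and pericyte and smooth muscle markers 4 higher of 5, while 4 of 6 endothelial markers were lower. The macrophage marker *Cd163* was higher, 1 of 2 tested striated muscle markers was higher, and none of the 5 adipocyte markers was listed. In HYP vs. WT the Schwann list gave 4 higher and 1 lower of 5, the neuronal list 5 higher and 1 lower of 6, the endothelial list 5 lower of 5 and the pericyte list 3 higher of 3, and *Cd163* was higher. In PCC vs. HYP both tested Schwann markers were lower and 1 of 3 pericyte markers was higher, and the 2 neuronal and 2 endothelial markers tested were not called. The summed CPM ranged in WT, HYP and PCC from 44.2 to 94.7, 59.4 to 98.5 and 16.8 to 54.4 for the Schwann list (6 genes, *S100b* the most abundant), from 120.3 to 309, 667 to 1055 and 387 to 1871 for the neuronal list (6 genes, *Prph*), from 483 to 608, 308 to 432 and 152 to 364 for the endothelial list (5 genes, *Kdr*), from 36.8 to 69.4, 116 to 162 and 542 to 2268 for the pericyte list (3 genes, *Rgs5*) and from 8.66 to 22.3, 32.1 to 43.1 and 5.96 to 52.8 for *Cd163*.

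**Figure D2:**
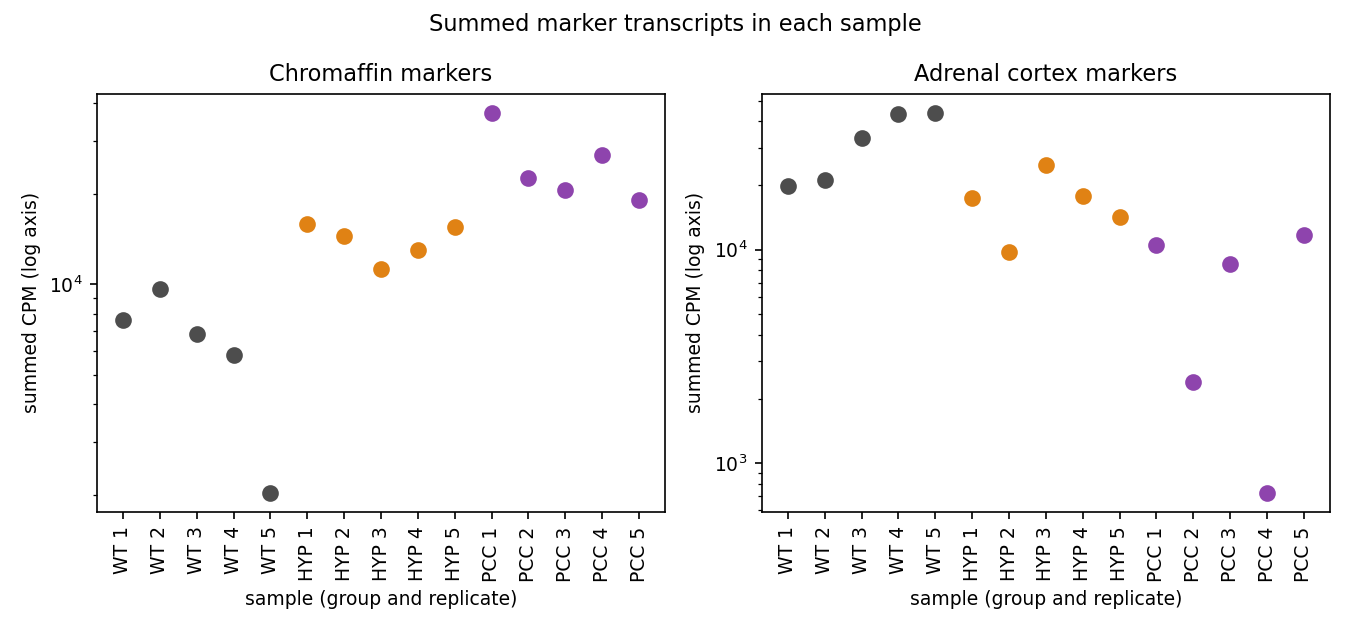
Points show the summed CPM (log axis) of 9 chromaffin markers and of 8 adrenal cortex markers in each of the 15 samples, colored by group. WT replicate 5 had the lowest chromaffin sum (2034 CPM) and PCC replicate 4 the lowest cortex sum (726 CPM).

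Potassium channels were the largest group. Of 36 tested in PCC vs. WT 24 were higher and 8 lower (median 1.69), in HYP vs. WT 17 of 27 higher and 5 lower (median 1.41), and in PCC vs. HYP 5 of 18 higher and 1 lower (median 0.82). *Kcnq3* and *Kcnq5* encode subunits of the M-type current, a slow brake on repeated firing. *Kcnq5* (ENSRNOG00000013781, chr9:27562959-27761733 in Rn06) measured 1.68, 1.81, 1.79, 1.82 and 0.782 CPM in WT, 24.7, 34.5, 19.1, 21.3 and 26.5 in HYP and 26.5, 41.7, 40.0, 21.9 and 39.1 in PCC. Every HYP and PCC sample stood above every WT sample, and HYP and PCC overlapped. The log2 fold change was 4.37 ± 0.32 in PCC vs. WT (adjusted p = 6.21e-05) and 3.93 ± 0.26 in HYP vs. WT (adjusted p = 1.58e-05). *Kcnq3* rose by 2.23 ± 0.33 and 2.13 ± 0.39 in the same comparisons, each without overlap with WT. *Kcnq1*, a slow delayed rectifier best known from heart and epithelia, was lower in both (log2 fold change -1.81 ± 0.29 and -1.42 ± 0.31), again without overlap, and its call in HYP vs. WT was lost under the listed-count scaling.

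Calcium-activated potassium channels link calcium entry to repolarization. *Kcnn3* (ENSRNOG00000020706, chr2:188844073-188988774 in Rn06), a small-conductance channel, measured 5.53, 8.46, 7.23, 6.89 and 6.47 CPM in WT, 14.0, 26.4, 12.9, 21.3 and 27.2 in HYP and 66.2, 58.0, 86.2, 109.8 and 32.5 in PCC. The 3 groups did not overlap, with WT lowest, HYP between and PCC highest. *Kcnn3* rose by 3.32 ± 0.31 in PCC vs. WT (adjusted p = 9.87e-05), 1.505 ± 0.24 in HYP vs. WT (adjusted p = 0.00218) and 1.68 ± 0.32 in PCC vs. HYP (adjusted p = 0.0124). *Kcnma1*, the large-conductance channel of chromaffin cells, rose by 1.38 ± 0.25 and 1.33 ± 0.27 against WT, with no overlap. Its accessory subunit *Kcnmb4* was lower in PCC vs. WT (-1.22 ± 0.34, adjusted p = 0.0175), with overlapping groups, and lost that call without WT replicate 3 (adjusted p = 0.0507) and under the listed-count and library-total scalings.

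Two-pore potassium channels carry the leak current that holds the resting potential. *Kcnk3* (ENSRNOG00000009790, chr6:27151612-27190132 in Rn06) encodes TASK-1, which is also known from the adrenal cortex, and measured 418, 475, 849, 998 and 1062 CPM in WT, 359.8, 321, 556, 548 and 503 in HYP and 340.3, 147, 368, 228 and 356 in PCC. All PCC samples lay below all WT samples, while HYP overlapped both. WT replicates 3, 4 and 5, which had the largest cortex sums, were the highest for *Kcnk3*, and PCC replicates 2 and 4, with the smallest cortex sums, were the lowest. The log2 fold change was -1.42 ± 0.32 in PCC vs. WT (adjusted p = 0.00576), and -0.78 ± 0.28 in HYP vs. WT was not called (adjusted p = 0.0834). *Kcnk3* passed the threshold in HYP vs. WT without WT replicate 1 or 2 (1 at a time, adjusted p = 0.0400 and 0.0478). The replicate block and adjustment over the listed genes only also called it there.

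*Kcnk5*, an alkaline-activated leak channel, measured 85.3, 81.8, 76.0, 53.2 and 84.6 CPM in WT, 46.6, 20.5, 13.3, 5.92 and 4.49 in HYP and 4.28, 2.52, 3.42, 8.89 and 23.1 in PCC. Every WT sample was above every HYP and PCC sample, and HYP spread widely. The log2 fold change was -3.20 ± 0.56 in PCC vs. WT (adjusted p = 0.00148) and -2.13 ± 0.52 in HYP vs. WT (adjusted p = 0.0165), and the latter call was lost under the listed-count scaling. These were -4.02 without PCC replicate 5 and -2.81 without HYP replicate 1. *Kcnk9*, which encodes TASK-3, measured 18.4, 32.5, 40.1, 26.4 and 126 CPM in WT, 13.2, 54.2, 30.9, 42.2 and 55.4 in HYP and 70.2, 102, 140.3, 188 and 77.3 in PCC. Every PCC sample was above every HYP sample, and WT replicate 5 stood among the PCC samples. *Kcnk9* was higher in PCC vs. HYP (1.44 ± 0.37, adjusted p = 0.0382), a call lost without HYP replicate 2, 3, 4 or 5 or PCC replicate 2, 3 or 4 (1 at a time, adjusted p from 0.0531 to 0.109). Against WT the change of 1.27 ± 0.47 was not called (adjusted p = 0.0597), but it was called, at 1.92, without WT replicate 5 (adjusted p = 0.00162). It was also called under DESeq2, both total-count scalings, the replicate block and adjustment over the listed genes only. *Kcnk15*, a close relative of *Kcnk3* and *Kcnk9*, was listed in HYP vs. WT only and was lower there (-1.39 ± 0.27, adjusted p = 0.00543).

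Voltage-gated delayed rectifiers, which repolarize the action potential, changed in both directions. *Kcnb2* rose from 0.326 ± 0.211 CPM (mean ± SD) in WT to 6.20 ± 3.67 in HYP and 6.03 ± 1.27 in PCC, a log2 fold change of 4.10 ± 0.42 in PCC vs. WT and 4.12 ± 0.49 in HYP vs. WT. *Kcna5* measured 2.07, 1.81, 1.69, 1.502 and 0.498 CPM in WT, 1.84, 1.43, 1.29, 1.51 and 3.54 in HYP and 9.34, 4.22, 15.3, 10.9 and 6.27 in PCC. Only the PCC samples stood apart from the other samples, with no overlap against WT (2.53 ± 0.44, adjusted p = 0.00145) or HYP (2.14 ± 0.40, adjusted p = 0.0117). *Kcnc2*, a fast-closing channel of rapidly firing cells, went down from 23.4 ± 5.34 CPM in WT to 12.2 ± 3.60 in HYP and 3.98 ± 1.94 in PCC, called lower against WT in PCC (-2.58) and in HYP (-0.998) and also in PCC vs. HYP (-1.69), the HYP vs. WT call lost under the listed-count scaling and the PCC vs. HYP call without HYP replicate 3 or 4 or PCC replicate 2 or 3 (1 at a time, adjusted p = 0.0712, 0.0599, 0.0546 and 0.0559). *Kcnh6*, of the ether-a-go-go family, was listed in HYP vs. WT only and was higher (1.59 ± 0.32, adjusted p = 0.00663). *Kcnh2* of the same family was listed only in PCC vs. HYP, where 0.79 ± 0.25 was not called (adjusted p = 0.0718), although no sample overlapped.

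Inward rectifiers pass current mainly near rest and include the channels that G proteins open. *Kcnj3*, one of the latter, measured 0.577, 0.403, 0.264, 0.376 and 0.0711 CPM in WT, 0.0634, 0.110, 0.580, 0 and 0.299 in HYP and 4.33, 1.12, 1.59, 13.6 and 0.859 in PCC. Every PCC sample was above every WT and HYP sample, and PCC replicate 4 was far above the other PCC samples. *Kcnj3* rose by 3.56 ± 0.85 in PCC vs. WT (adjusted p = 0.00771) and 4.19 ± 0.96 in PCC vs. HYP (adjusted p = 0.0246), and the latter was lost without HYP replicate 1, 2, 4 or 5 (1 at a time, adjusted p = 0.0541, 0.0591, 0.0659 and 0.0557). The log2 fold changes of *Kcnj3* were 2.43 and 3.12 without PCC replicate 4, and 4.90 in PCC vs. HYP without HYP replicate 3. *Kcnj12*, a strong inward rectifier, was higher without overlap in HYP vs. WT (2.78 ± 0.41, adjusted p = 0.00142). *Kcnj5*, the usual partner of *Kcnj3*, was listed in HYP vs. WT only, and its 1.01 ± 0.32 was just short of the threshold with no overlap between the groups, and past it without WT replicate 2 or 5 or HYP replicate 1 or 3 (1 at a time, adjusted p = 0.0173, 0.0296, 0.0428 and 0.0428). DESeq2, the listed-count scaling, an absent or a stricter low-count filter and adjustment over the listed genes only also called *Kcnj5*.

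Sodium channel genes moved upward with few exceptions. Of 10 tested in PCC vs. WT 8 were higher and the other 2 not called (median 1.43), in HYP vs. WT 9 of 11 higher and 1 lower (median 1.42), and *Asic1* alone was listed in PCC vs. HYP. The share called higher was 80.0% in PCC vs. WT (46.7% of all genes) and 81.8% in HYP vs. WT (39.5%). PCC and WT samples did not overlap for only 3 of the 10, beside 66.2% of all genes. Leaving out 1 sample at a time lost the PCC vs. WT call of *Scn2b* in 9 runs, *Scn7a* in 7 and *Scn2a* in 3. *Nalcn*, the sodium leak channel that depolarizes the resting cell, measured 47.8, 71.6, 59.7, 41.6 and 21.4 CPM in WT, 84.7, 190.4, 138, 172 and 226 in HYP and 197, 209, 252, 230.4 and 166 in PCC. All HYP and PCC samples lay above all WT samples, and WT replicate 5 was the lowest. *Nalcn* rose by 2.07 ± 0.30 in PCC vs. WT (adjusted p = 0.000595) and by 1.69 ± 0.32 in HYP vs. WT (adjusted p = 0.00485). *Scn8a*, a voltage-gated sodium channel of the axon initial segment in neurons, measured 35.8, 45.1, 28.5, 30.4 and 9.03 CPM in WT, 85.2, 75.3, 60.6, 66.4 and 75.5 in HYP and 86.6, 71.7, 73.4, 96.7 and 68.4 in PCC. Its HYP and PCC samples overlapped each other and cleared every WT sample, for log2 fold changes of 1.36 ± 0.35 in PCC vs. WT (adjusted p = 0.0123) and 1.23 ± 0.31 in HYP vs. WT (adjusted p = 0.0201).

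*Scn3b*, an accessory subunit, measured 51.4, 74.6, 48.6, 122 and 60.0 CPM in WT, 232, 221, 193, 155 and 187 in HYP and 411, 426, 269, 82.4 and 241 in PCC. PCC replicate 4 lay within the WT values and the other PCC samples above them, and HYP did not overlap with WT. *Scn3b* rose by 1.97 ± 0.42 in PCC vs. WT (adjusted p = 0.00441) and 1.42 ± 0.24 in HYP vs. WT (adjusted p = 0.00315). *Scn2a*, *Scn3a*, *Scn7a* and *Scn9a*, of the sodium channel pore family, lie together at chr3:51532627-52849907 in Rn06. *Scn3a* was higher in PCC vs. WT (1.51 ± 0.39) and in HYP vs. WT (1.59 ± 0.28), with overlap in the former only. *Scn2a* was called in PCC vs. WT (1.79 ± 0.53, adjusted p = 0.0236), but not without WT replicate 3 or 4 or PCC replicate 2 (1 at a time, adjusted p = 0.0584, 0.0563 and 0.0593). Its 1.36 ± 0.45 in HYP vs. WT was not called (adjusted p = 0.0607), but it was without WT replicate 2 or 5 (1 at a time, adjusted p = 0.0360 and 0.0113). DESeq2, the listed-count scaling, the stricter low-count filter, the replicate block and adjustment over the listed genes only also called *Scn2a* there. *Scn7a*, a sodium sensor that is hardly voltage-gated, was highest in HYP, at 22.9 ± 15.2 CPM in WT, 106 ± 43.4 in HYP and 57.4 ± 25.9 in PCC (HYP vs. WT 2.16 ± 0.39, adjusted p = 0.00404). *Scn9a* was listed in HYP vs. WT only and measured 50.5, 59.9, 40.6, 38.5 and 8.69 CPM in WT and 93.6, 186, 143, 108 and 146 in HYP. Every HYP sample was above every WT sample, and the log2 fold change was 1.77 ± 0.39 (adjusted p = 0.0103).

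*Asic1* (ENSRNOG00000059765, chr7:141326321-141354937 in Rn06), an acid-sensing sodium channel, measured 2.84, 4.43, 3.43, 6.20 and 4.05 CPM in WT, 12.8, 7.19, 7.29, 7.67 and 9.03 in HYP and 63.0, 49.99, 56.5, 79.5 and 32.8 in PCC. The 3 groups did not overlap, and the step from HYP to PCC was the larger one. *Asic1* rose by 1.02 ± 0.25 in HYP vs. WT (adjusted p = 0.0180), by 2.57 ± 0.26 in PCC vs. HYP (adjusted p = 0.00133) and by 3.72 ± 0.29 in PCC vs. WT (adjusted p = 6.69e-05), and the call in HYP vs. WT was lost without WT replicate 3 (adjusted p = 0.0501).

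Calcium channel genes, counted with their accessory subunits and the store-operated and release channels, also rose more often than they fell. In PCC vs. WT 15 of 19 tested were higher and 2 lower (median 1.79), in HYP vs. WT 11 of 18 higher and 1 lower (median 1.33), and in PCC vs. HYP 3 of 10 higher and 1 lower (median 0.63). *Cacna1d*, an L-type channel that opens at low voltage and paces chromaffin cells, measured 79.0, 100.4, 76.0, 63.0 and 43.3 CPM in WT, 207, 216, 162, 182 and 222 in HYP and 257, 261, 225, 261 and 180.4 in PCC. The WT values ended well below the lowest HYP and PCC values, and HYP and PCC overlapped. *Cacna1d* rose by 1.67 ± 0.24 in PCC vs. WT (adjusted p = 0.000613) and 1.40 ± 0.20 in HYP vs. WT (adjusted p = 0.00136). *Cacna1b*, the N-type channel of exocytosis, rose by 1.75 ± 0.45 and 1.603 ± 0.33, with no overlap with WT in either. *Cacna1c*, the other L-type channel of chromaffin cells, was lowest in HYP, at 40.3 ± 10.3 CPM in WT, 29.3 ± 3.89 in HYP and 62.3 ± 21.9 in PCC. It was called in PCC vs. HYP (0.98 ± 0.23, adjusted p = 0.0273), a call lost without HYP replicate 1, 2, 3, 4 or 5 or PCC replicate 3 or 4 (1 at a time, adjusted p from 0.0518 to 0.0801), and not in HYP vs. WT (-0.52 ± 0.18, adjusted p = 0.0760).

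*Cacna1h*, a T-type channel opened by small depolarizations and known from the cortex zone that makes aldosterone, measured 201, 236, 225, 226 and 586 CPM in WT, 171, 129.9, 103, 145 and 129.7 in HYP and 91.7, 14.5, 85.7, 19.6 and 221 in PCC. WT replicate 5 was far above the other WT samples, PCC replicate 5 lay within the WT values, and PCC replicates 2 and 4 were the lowest of all samples. *Cacna1h* was lower in HYP vs. WT (-1.17 ± 0.29, adjusted p = 0.0172), and that call was lost without HYP replicate 2, 3 or 5 (1 at a time, adjusted p = 0.0524, 0.0521 and 0.0535) and under the listed-count scaling. In PCC vs. WT its -1.78 ± 0.64 was not called (adjusted p = 0.0546), but it was called, at -2.49, without PCC replicate 5 (adjusted p = 0.00861). It was also called there under DESeq2, the replicate block and adjustment over the listed genes only. *Cacna1e*, the R-type channel, rose in HYP vs. WT from 0.332 ± 0.0697 to 2.09 ± 0.685 CPM (2.60 ± 0.30, adjusted p = 0.000415). *Cacna1a*, the P/Q-type channel, was listed only in HYP vs. WT, where 1.22 ± 0.39 was not called (adjusted p = 0.0515). It was called without WT replicate 2 or 5 or HYP replicate 3 (1 at a time, adjusted p = 0.0284, 0.00758 and 0.0451). DESeq2, the listed-count scaling, an absent or a stricter low-count filter and adjustment over the listed genes only also called *Cacna1a*.

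Among the accessory alpha2-delta subunits, which bring pore subunits to the membrane, *Cacna2d4* (ENSRNOG00000008031, chr4:151298548-151409263 in Rn06) had the largest log2 fold change of any tested channel gene in both comparisons with WT. It measured 0.144, 0.403, 0.158, 0.313 and 0.0711 CPM in WT, 5.26, 16.6, 4.84, 6.27 and 9.83 in HYP and 1.05, 29.1, 3.93, 28.0 and 13.5 in PCC. All HYP and PCC samples lay above all WT samples, and PCC replicates 1 and 3 were below every HYP sample. *Cacna2d4* rose by 6.03 ± 0.94 in PCC vs. WT (adjusted p = 0.000842) and 5.18 ± 0.50 in HYP vs. WT (adjusted p = 0.000180). *Cacna2d2* measured 20.6, 27.2, 17.1, 14.3 and 8.18 CPM in WT, 18.4, 17.4, 18.2, 19.3 and 21.0 in HYP and 135, 36.2, 166, 208 and 45.8 in PCC. WT and HYP overlapped, and every PCC sample stood above both, with replicates 2 and 5 the lowest of them. *Cacna2d2* rose by 2.69 ± 0.51 in PCC vs. WT (adjusted p = 0.00237) and 2.53 ± 0.43 in PCC vs. HYP (adjusted p = 0.00702). *Cacna2d1* rose by 1.33 ± 0.19 in PCC vs. WT without overlap and by 1.21 ± 0.30 in HYP vs. WT with HYP replicate 1 among the WT values. *Cacna2d3*, with -1.24 ± 0.47 in PCC vs. WT and -1.12 ± 0.34 in PCC vs. HYP, was called in neither (adjusted p = 0.0643 and 0.0609), although it was in PCC vs. WT without WT replicate 5 or PCC replicate 1 (1 at a time, adjusted p = 0.00560 and 0.0461) and in PCC vs. HYP without PCC replicate 1 (adjusted p = 0.0274). DESeq2 and adjustment over the listed genes only each called *Cacna2d3* in both comparisons.

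*Cacng2*, better known as a partner of AMPA-type glutamate receptors, rose from 0.322 ± 0.192 CPM in WT to 2.02 ± 0.481 in HYP and 5.32 ± 1.71 in PCC with no overlap between any of the groups (2.54 ± 0.44 in HYP vs. WT, 1.28 ± 0.30 in PCC vs. HYP and 3.95 ± 0.55 in PCC vs. WT). Its call in PCC vs. HYP was lost without HYP replicate 1, 2, 3 or 4 or PCC replicate 2 or 3 (1 at a time, adjusted p from 0.0516 to 0.0795). *Cacnb2*, a beta subunit, was lower in PCC vs. WT (-0.83 ± 0.18, adjusted p = 0.00545) without overlap, and lost that call under the listed-count scaling. In PCC vs. HYP it was lower as well (-0.84 ± 0.22, adjusted p = 0.0363), but the call was lost without HYP replicate 2, 3, 4 or 5 or PCC replicate 2, 3 or 4 (1 at a time, adjusted p from 0.0558 to 0.0930) and under both total-count scalings.

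Of the channels that release calcium from stores, *Ryr2* measured 29.4, 37.9, 28.9, 21.5 and 11.9 CPM in WT, 77.9, 159, 84.1, 96.7 and 126 in HYP and 103, 164, 195, 153 and 132 in PCC. Both MENX groups were above WT in every sample, for log2 fold changes of 2.48 ± 0.32 in PCC vs. WT (adjusted p = 0.000321) and 2.01 ± 0.30 in HYP vs. WT (adjusted p = 0.00142). *Ryr1* (-1.15, adjusted p = 0.116) and *Itpr3* (-0.44, adjusted p = 0.110) were listed in HYP vs. WT only and not called. The store sensors went apart in PCC vs. WT: *Stim1* rose by 0.88 ± 0.17 (adjusted p = 0.00232) and *Stim2* had a log2 fold change of -0.78 ± 0.21 (adjusted p = 0.0141), neither with overlap, and *Stim2* lost its call under the listed-count and library-total scalings. In PCC vs. HYP neither *Stim1* (0.39, adjusted p = 0.235) nor *Stim2* (-0.69, adjusted p = 0.0723) was called, although *Stim2* was without PCC replicate 1 (adjusted p = 0.0327). DESeq2 also called *Stim2* there, and adjustment over the listed genes only called both genes.

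Chloride channel genes were called in both directions in shares near those of all genes in PCC vs. WT. Of 11 tested there 6 (54.5%) were higher and 4 (36.4%) lower, beside 46.7% and 38.5% of all genes (median 0.50), in HYP vs. WT 2 of 5 higher and 1 lower (median 0.70), and in PCC vs. HYP 1 of 4 higher and the other 3 not called (median -0.29). *Clcn6*, a chloride-proton exchanger of late endosomes, measured 37.9, 43.7, 41.0, 31.5 and 31.9 CPM in WT, 81.8, 69.1, 57.3, 75.5 and 79.8 in HYP and 105, 133, 98.7, 103 and 80.2 in PCC. Every HYP and PCC sample exceeded every WT sample. *Clcn6* rose by 1.45 ± 0.18 in PCC vs. WT (adjusted p = 0.000316) and 0.91 ± 0.15 in HYP vs. WT (adjusted p = 0.00221). *Clic2*, of the intracellular chloride channel family, measured 198, 161, 166, 208 and 244 CPM in WT, 145, 93.5, 159, 103 and 80.7 in HYP and 87.5, 24.0, 47.5, 7.57 and 48.2 in PCC. WT lay above HYP and PCC in every sample, and PCC replicate 4 was the lowest.

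*Clic2* changed by -2.22 ± 0.48 in PCC vs. WT (adjusted p = 0.00476) and by -0.80 ± 0.21 in HYP vs. WT (adjusted p = 0.0216), the latter lost without HYP replicate 2, 4 or 5 (1 at a time, adjusted p = 0.0522, 0.0502 and 0.0516) and under the listed-count scaling. *Clic5* of the same family was lower in PCC vs. WT (-1.13 ± 0.27, adjusted p = 0.00772) without overlap, and lost that call under both total-count scalings. *Ano6*, a calcium-activated channel and lipid scramblase, rose by 1.21 ± 0.22 in PCC vs. WT (adjusted p = 0.00190) without overlap, from 89.7 ± 22.2 to 209.8 ± 50.3 CPM. *Best3*, a bestrophin, rose by 2.86 ± 0.59 in PCC vs. WT (adjusted p = 0.00349) and stayed at few reads, at 0.651 ± 0.350 CPM in WT and 4.97 ± 3.38 in PCC.

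TRP channel genes were called in both directions, in PCC vs. WT in shares near those of all genes. Of 9 tested there 5 (55.6%) were higher and 3 (33.3%) lower, beside 46.7% and 38.5% of all genes (median 1.31). In HYP vs. WT 1 of 4 was higher and 2 lower (median -1.14), beside 39.5% and 32.5% of all genes. In PCC vs. HYP 2 of 5 were higher and 1 lower (median 0.86), beside 21.8% and 22.6%. The canonical subfamily, opened downstream of phospholipase C, gave 4 of the 5 higher ones in PCC vs. WT. *Trpc5* measured 6.06, 12.1, 10.7, 7.83 and 4.69 CPM in WT, 7.54, 14.7, 13.2, 19.3 and 25.3 in HYP and 33.3, 24.4, 45.8, 34.9 and 17.9 in PCC. Its PCC values all lay above its WT values, and HYP overlapped both. *Trpc5* rose by 1.87 ± 0.33 (adjusted p = 0.00149) and *Trpc1* by 1.56 ± 0.27 in PCC vs. WT, and *Trpc1* by 1.14 ± 0.24 in HYP vs. WT, each without overlap.

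The vanilloid subfamily gave 2 of the 3 lower ones. *Trpv2*, known from macrophages and other cells, measured 144, 77.0, 57.4, 66.9 and 233 CPM in WT, 77.9, 34.4, 41.3, 53.8 and 39.9 in HYP and 14.8, 22.4, 21.8, 6.48 and 31.8 in PCC, and *Trpv4*, a channel opened by cell swelling, measured 14.8, 20.1, 19.5, 26.8 and 24.8 CPM in WT, 6.21, 2.58, 7.22, 6.79 and 4.19 in HYP and 0.775, 0.534, 1.92, 0.568 and 7.90 in PCC. For both genes the PCC values all lay under the WT values, and for *Trpv2* PCC was below HYP as well. *Trpv2* had log2 fold changes of -2.57 ± 0.47 in PCC vs. WT (adjusted p = 0.00184) and -1.43 ± 0.38 in PCC vs. HYP (adjusted p = 0.0401), the latter lost without HYP replicate 1, 2, 3, 4 or 5 or PCC replicate 1, 2 or 3 (1 at a time, adjusted p from 0.0543 to 0.0869) and under both total-count scalings. *Trpv4* had -3.20 ± 0.70 in PCC vs. WT (adjusted p = 0.00519, and -4.50 without PCC replicate 5) and -2.03 ± 0.28 in HYP vs. WT (adjusted p = 0.00115). Of the melastatin subfamily, *Trpm4*, a calcium-activated cation channel, was lower in PCC vs. WT (-0.90 ± 0.30, adjusted p = 0.0384), a call lost without WT replicate 1, 2 or 3 or PCC replicate 1, 2, 3, 4 or 5 (1 at a time, adjusted p from 0.0519 to 0.111) and under both total-count scalings. *Trpm1*, the melastatin founder of melanocytes and retina, measured 0.0962, 0, 0, 0.0626 and 0 CPM in WT, 0, 0, 0, 0 and 0.0998 in HYP and 0.638, 2.38, 13.0, 7.61 and 0.344 in PCC. It was near absent from WT and HYP, where no library had more than 3 reads, and present in all PCC samples, most in replicate 3. With 3 reads per library as the floor, PCC was at least 27.4-fold higher than WT and at least 25.0-fold higher than HYP, without a test, and at least 16.01-fold and 14.3-fold without PCC replicate 3.

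Of the pacemaker and mechanosensitive cation channels, *Hcn2*, *Hcn3* and *Hcn4* rose and *Piezo1* fell in PCC vs. WT (3 of 4 higher, 1 lower, median 1.65). HYP vs. WT gave 3 higher and 1 lower of 4 (median 1.02), and PCC vs. HYP 1 higher of 2. Of all genes tested 46.7% were higher and 38.5% lower in PCC vs. WT, 39.5% and 32.5% in HYP vs. WT, and 21.8% and 22.6% in PCC vs. HYP. *Hcn4* (ENSRNOG00000009450, chr8:63600663-63639654 in Rn06), the pacemaker channel of the sinus node, measured 0.289, 0.554, 0.633, 0.814 and 0.284 CPM in WT, 3.99, 3.51, 1.29, 2.79 and 3.09 in HYP and 8.20, 8.54, 9.54, 27.9 and 10.9 in PCC. The 3 groups did not overlap, and PCC replicate 4 was far above the other PCC samples. *Hcn4* rose by 4.61 ± 0.49 in PCC vs. WT (adjusted p = 0.000130), by 2.44 ± 0.37 in HYP vs. WT (adjusted p = 0.00172) and by 2.02 ± 0.40 in PCC vs. HYP (adjusted p = 0.0145), the last lost without HYP replicate 4 (adjusted p = 0.0503). *Hcn3* rose by 1.97 ± 0.34 in PCC vs. WT and 0.99 ± 0.27 in HYP vs. WT, and the latter call was lost without WT replicate 1 or 4 or HYP replicate 4 or 5 (1 at a time, adjusted p = 0.0614, 0.0649, 0.0535 and 0.0610). *Hcn2* rose by 1.33 ± 0.29 in PCC vs. WT and was listed there only. *Piezo1*, a stretch-activated channel, measured 75.2, 100.3, 42.5, 37.2 and 30.2 CPM in WT, 21.2, 19.9, 19.3, 26.1 and 26.1 in HYP and 12.5, 13.6, 22.5, 10.1 and 19.4 in PCC. WT was above HYP and PCC in every sample, for log2 fold changes of -1.93 ± 0.38 in PCC vs. WT (adjusted p = 0.00266) and -1.40 ± 0.30 in HYP vs. WT (adjusted p = 0.00939), the latter lost under the listed-count scaling.

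**Figure D3:**
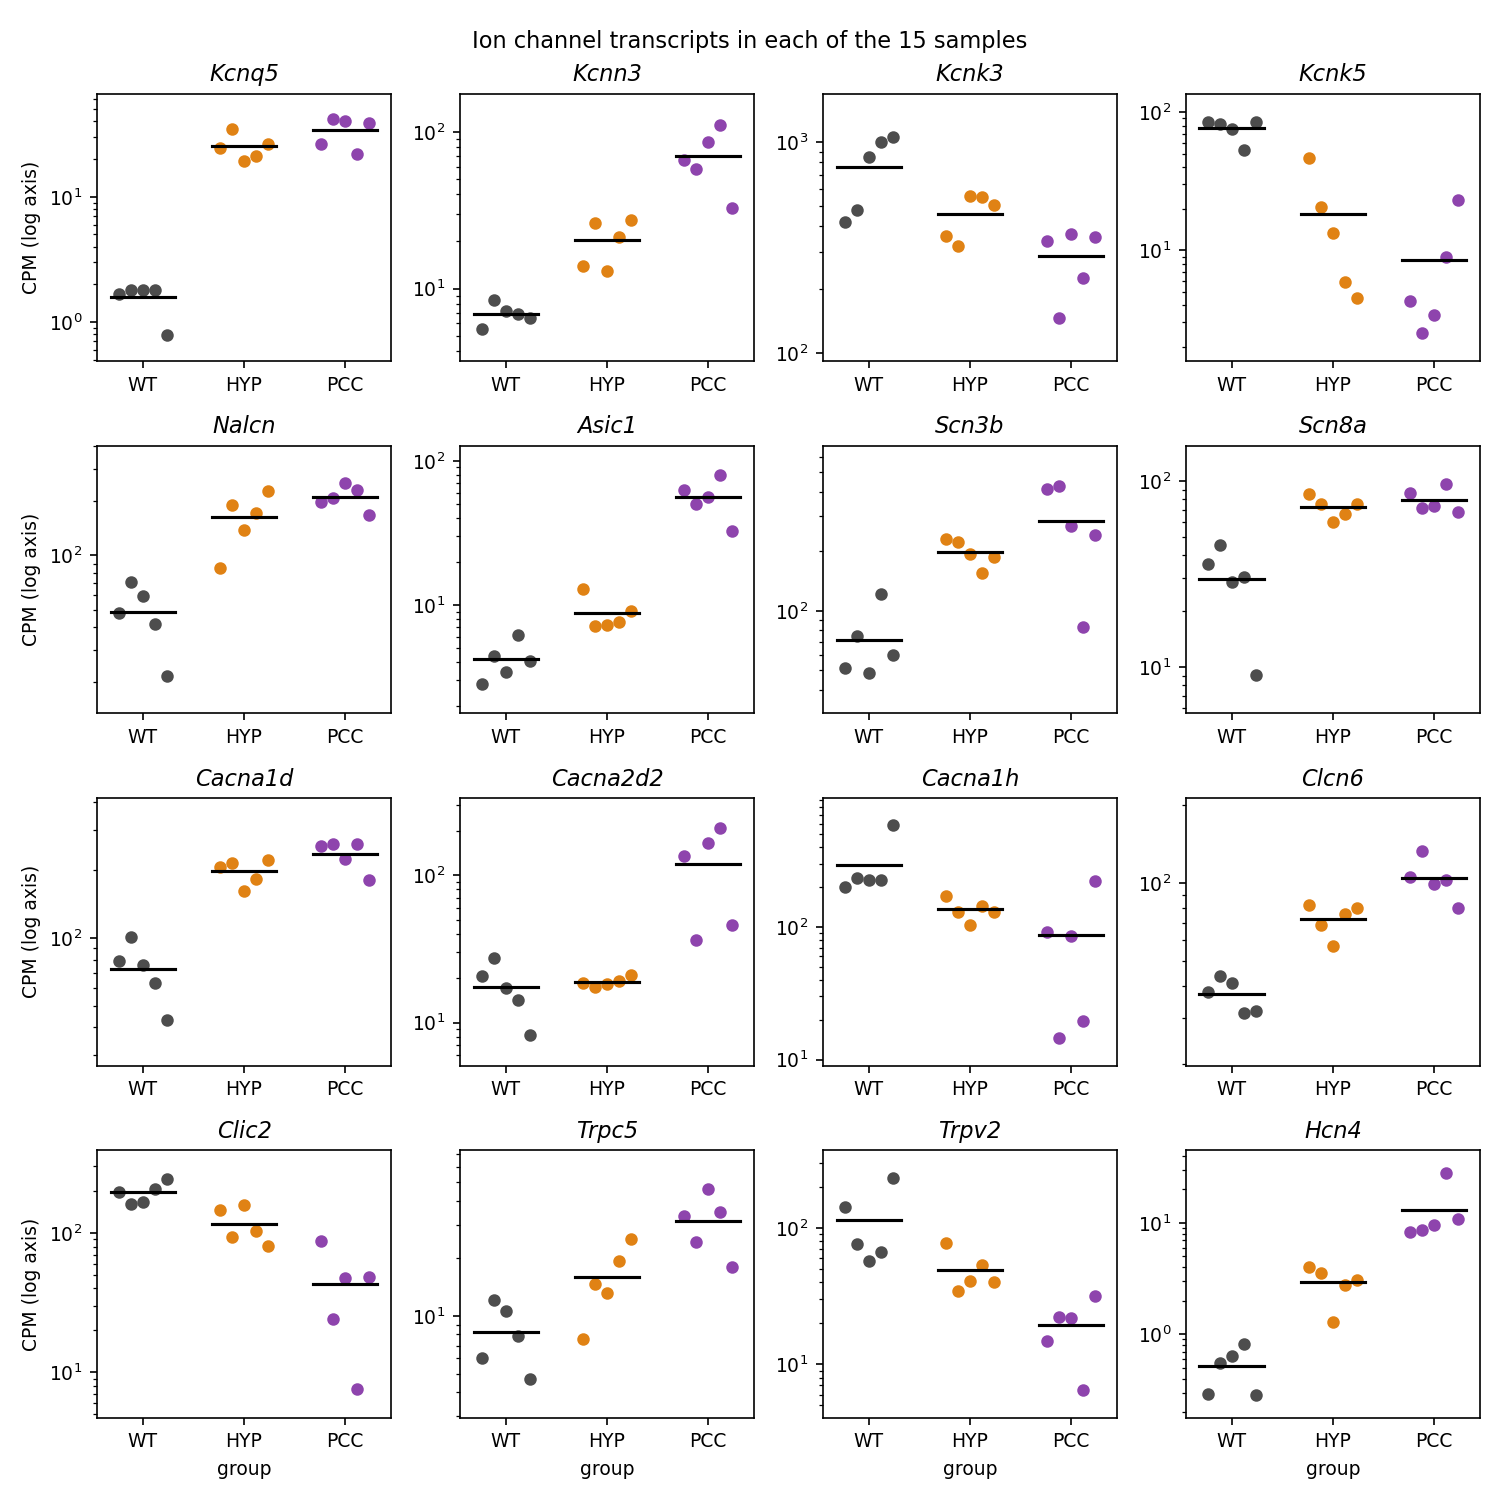
Points show the CPM (log axis) of 16 channel genes in each of the 15 samples by group, and black lines the group means. *Kcnn3*, *Asic1* and *Hcn4* separated the 3 groups, *Kcnk3* had a WT mean of 760.4 CPM, and WT replicate 5 of *Scn8a* stood at 9.03 CPM.

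Across the 82 channel genes with counts in all 15 samples the group means rose from WT over HYP to PCC for 51 (62.2%), fell for 17 (20.7%), peaked in HYP for 6 and were lowest in HYP for 8. Of all 5492 such genes 43.9% rose and 41.2% fell in that order. By group the counts rising and falling were 21 and 6 for potassium, 5 and 1 for sodium, 14 and 4 for calcium, 4 and 3 for chloride, 5 and 2 for TRP and 2 and 1 for other cation channels. On the scale common to the 15 samples, WT below HYP below PCC with no overlap between any groups was seen for 7 channel genes (8.54%) and for 7.52% of all genes. Among these were *Kcnn3*, *Asic1*, *Cacng2*, *Cacng7*, *Orai2* and *Hcn4*, named after their values were seen, of which *Cacng7* overlapped between PCC and HYP on the scale of that pair.

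Levels can be compared between genes only per length. Per kilobase of gene model, the highest mean CPM in WT among the 82 channel genes with counts in all 15 samples was that of *Kcnk3* (164), ahead of *Clic2* (150.2), *Clic4* (44.1), *Trpv2* (41.3) and *Cacna1h* (37.5). In HYP the order was *Kcnk3* (98.9), *Clic2* (89.5), *Scn3b* (50.9) and *Cacng7* (39.6). Among the same genes PCC had *Scn3b* first (73.6), then *Kcnk9* (68.9), *Cacng7* (67.3), *Kcnk3* (62.1) and *Nalcn* (39.6). Of the genes without counts in all samples, *Clic1*, named after its values were seen, stood at 132 in WT and 103 in PCC on the scale of that pair, above *Clic4* in WT and above *Scn3b* in PCC. In contrast, the largest log2 fold changes belonged to genes of low level, such as *Cacna2d4* at 4.37 and *Kcnb2* at 2.79 CPM per kilobase in PCC.

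Genes that act beside channels were taken as lists by role. Of the nicotinic receptors, through which the splanchnic nerve excites chromaffin cells, 4 of 8 tested were higher and 1 lower in PCC vs. WT, 3 of 6 higher in HYP vs. WT and 1 of 2 higher in PCC vs. HYP. *Chrna7* rose by 2.02 ± 0.22 and *Chrnb4* by 1.14 ± 0.28 in PCC vs. WT. Pumps and exchangers for sodium and calcium gave 7 higher and 3 lower of 13, 5 higher and 1 lower of 9, and 2 higher and 2 lower of 6 in the same order of comparisons. *Atp2a3*, a pump that refills the calcium store, rose by 3.90 ± 0.57 and the sodium-calcium exchanger *Slc8a3* by 2.68 ± 0.34 in PCC vs. WT, while *Fxyd5*, a regulator of the sodium pump, had -1.49 ± 0.37. Over all genes tested 46.7% were higher and 38.5% lower in PCC vs. WT, 39.5% and 32.5% in HYP vs. WT, and 21.8% and 22.6% in PCC vs. HYP. Channel partners and anchors gave 14 higher and 1 lower of 15, 10 higher and 1 lower of 12, and 3 higher of 7. In PCC vs. WT *Jph3*, which couples store and surface channels, rose by 4.29 ± 0.43, *Unc79*, a subunit of the *Nalcn* complex, by 2.16 ± 0.26, *Dpp6*, a partner of A-type potassium channels, by 1.79 ± 0.39 and *Ank3*, which anchors sodium channels, by 1.63 ± 0.40, while *Fgf13*, a sodium channel regulator, had -1.87 ± 0.55.

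Promoters (250 bases before to 50 after the gene start, from RefSeq in build GRCr8, while the count tables use Rn06) were matched by symbol for 77 of the 117 channel genes and searched on both strands for 7 short motifs. The hypoxia response core ACGTG was found in 15.6% of the 77 (12 promoters), in 15.4% of 39 genes higher and 21.4% of 14 genes lower in PCC vs. WT, and in 19.3% of all 33469 promoters. The other motifs, with their share of the 77, of the higher, of the lower and of all promoters, were GCGTG (44.2%, 46.2%, 57.1% and 29.7%), the E-box CACGTG, which holds ACGTG (9.09%, 10.3%, 7.14% and 6.42%), AGCACC of the RE1 element (16.9%, 2.56%, 35.7% and 16.3%), TGACG of the cyclic AMP response element (19.5%, 20.5%, 21.4% and 21.2%), the GC box GGGCGG (58.4%, 59.0%, 71.4% and 33.1%) and TATAAA (5.19%, 5.13%, 0% and 14.2%). AGCACC thus stood in 1 of 39 promoters of higher and 5 of 14 of lower genes. Channel gene promoters were also richer in bases G and C (median 62.3% against 51.7%) and in CG pairs (median 19 against 7). The 77 are 1 promoter per symbol, while the 33469 were not reduced to 1 per symbol or limited by gene type. The 2 sets are therefore not fully alike in make-up. A match describes letters only and marks no bound site. The 4 promoters printed here are from the 12 that hold ACGTG, chosen as a pair of genes that rose (*Clcn6* and *Ano6*) and a pair that fell (*Kcnk5* and *Trpv4*) in PCC vs. WT. Capitals mark ACGTG or its reverse complement CACGT, read from 5′ to 3′ on the strand of the gene, at chr5:163748149-163748448 (minus strand), chr7:128812881-128813180 (plus), chr15:4171375-4171674 (plus) and chr12:47598938-47599237 (plus) in GRCr8. Counting both strands, the matches number 4, 2, 2 and 1 in that order. A CACGTG counts as 2 matches, since it reads ACGTG on both strands. The capitals therefore form 2, 1, 1 and 1 separate stretches.
Clcn6: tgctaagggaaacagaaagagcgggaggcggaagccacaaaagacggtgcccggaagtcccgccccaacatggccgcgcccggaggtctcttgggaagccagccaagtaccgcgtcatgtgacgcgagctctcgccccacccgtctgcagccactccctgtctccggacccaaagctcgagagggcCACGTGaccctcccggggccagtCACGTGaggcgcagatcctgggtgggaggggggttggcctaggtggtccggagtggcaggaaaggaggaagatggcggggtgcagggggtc
Ano6: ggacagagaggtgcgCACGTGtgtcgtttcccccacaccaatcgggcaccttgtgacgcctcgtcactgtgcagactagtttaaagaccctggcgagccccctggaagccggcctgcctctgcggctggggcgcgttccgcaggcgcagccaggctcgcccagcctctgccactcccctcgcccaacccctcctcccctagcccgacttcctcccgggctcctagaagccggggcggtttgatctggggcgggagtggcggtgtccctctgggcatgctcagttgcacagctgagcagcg
Kcnk5: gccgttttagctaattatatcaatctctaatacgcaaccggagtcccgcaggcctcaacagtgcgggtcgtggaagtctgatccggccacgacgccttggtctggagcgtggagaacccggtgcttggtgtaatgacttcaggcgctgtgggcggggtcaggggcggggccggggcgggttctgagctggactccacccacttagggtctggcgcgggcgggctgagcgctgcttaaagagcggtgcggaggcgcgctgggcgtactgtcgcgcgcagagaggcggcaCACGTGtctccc
Trpv4: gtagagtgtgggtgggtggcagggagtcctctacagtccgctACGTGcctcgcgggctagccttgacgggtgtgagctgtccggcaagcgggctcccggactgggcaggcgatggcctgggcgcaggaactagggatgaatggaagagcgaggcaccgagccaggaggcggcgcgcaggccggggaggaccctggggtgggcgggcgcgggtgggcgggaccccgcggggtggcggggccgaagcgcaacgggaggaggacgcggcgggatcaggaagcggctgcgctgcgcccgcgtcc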

How the data were processed

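The deposited tables, 1 per comparison, give for each gene the raw read count per sample (counts), a normalized value per sample (signal, the count divided by a size factor of the authors), FPKM computed by the authors and the p-value of the authors' own test. The authors mapped paired-end reads to the rat build Rn06 with HISAT2 2.0.5, counted them with featureCounts 1.5.0-p3 and compared groups with DESeq2, and the deposited tables keep genes with an adjusted p under 0.05. The p-value columns of the authors were used only to recover how many genes had been tested (18790 for PCC against WT, 18057 for HYP against WT and 17454 for PCC against HYP), which the listed genes alone do not give, and no p-value of theirs is printed. The authors' fold-change columns were not used. Library totals were recovered from counts, FPKM and gene length. The 40820 count values that tables share were identical.

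Counts were fitted per comparison over all listed genes with edgeR 4.0.16 (R 4.3.3, limma 3.58.1), with TMM scaling over the listed genes, filterByExpr (682, 298 and 212 genes removed) and the quasi-likelihood F test without covariates. The Benjamini-Hochberg adjustment ran over the recovered number of genes tested, with unlisted genes ranked last, so adjusted p-values are upper bounds. CPM divides by the TMM-adjusted library size, set to the level of the recovered totals. CPM on the scale of all 15 samples uses a separate TMM over the 5492 genes with counts in all of them. Standard errors are the absolute log2 fold change divided by the square root of F. The fit was also run on simulated data, and no result of that run is given here. The accuracy of the fit on tables of preselected genes was not tested. Tables and plots used Python 3.11.15, numpy 2.4.6, pandas 2.3.3 and matplotlib 3.10.9.

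Genes were named by rule: in each comparison and channel group the 3 largest called changes upward and the 3 largest downward, given a mean CPM of 1 or more and separate groups, channels known in chromaffin cells wherever listed, and genes with at most 3 counts in every library of 1 group. Not every gene taken by the rule is described. Genes named outside that rule, among them *Cacng7*, *Orai2* and the printed partner genes, were chosen after their values were seen. The channel genes and the lists were chosen with earlier results of these data known. The plan put names beginning with Tmem16 under chloride, and the 5 genes found that way encode no known channel and were taken out after the gene names were seen. In PCC vs. WT 2 of 4 tested were higher and 2 lower, in HYP vs. WT 1 of 2 was higher, and in PCC vs. HYP the 2 tested were not called. Marker lists hold 5 to 14 genes each.

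Alternatives were DESeq2 1.42.0 with its own size factors, scaling by summed listed counts, by recovered library totals or by the authors' size factors, an absent or a stricter low-count filter (10 counts or more in all samples), adjustment over the listed genes only, leaving out each sample in turn, and the replicate number as a block.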

Additional observations from a re-analysis of the deposited data

Results flagged for a closer look

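In 15 of the 185 groups of 5 samples checked, 1 sample stood far from the other 4. Its gap to the nearest neighbor was more than 0.71 of the range of the group. Gap and range were taken on the log2 scale after adding 0.5 to each CPM. The CPM values printed below, which are not logarithms, therefore do not give these ratios directly. Chance alone gives about 1 in 20 groups. WT replicate 5 was the sample in 6 of the 15 and PCC replicate 4 in 3.

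WT replicate 5 stood far above the other WT samples for *Cacna1h* (gap over range 0.853, 586 CPM against 201 to 236) and far below them for *Cacng2* (0.742, 0 CPM against 0.337 to 0.501), *Kcna5* (0.737, 0.498 against 1.503 to 2.07), *Kcnq5* (0.9, 0.782 against 1.68 to 1.82), *Scn8a* (0.712, 9.03 against 28.5 to 45.1) and *Scn9a* (0.768, 8.69 against 38.5 to 59.9). WT replicate 4 was far below for *Kcnk5* (0.757, 53.2 CPM against 76.0 to 85.3), and WT replicate 3 for the endothelial marker sum (0.729, 483 CPM against 571 to 608).

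PCC replicate 4 was far above the other PCC samples for *Hcn4* (0.774, 27.9 CPM against 8.20 to 10.9) and *Kcnh2* (0.908, 250.3 against 117 to 126) and far below them for the macrophage marker *Cd163* (0.831, 5.96 against 36.9 to 52.8). PCC replicate 1 was far below for *Trpm4* (0.765, 3.55 CPM against 5.29 to 5.96). HYP replicate 2 was far above the other HYP samples for *Cacna1e* (0.766, 3.29 CPM against 1.63 to 1.93), HYP replicate 1 far below for *Cacna2d1* (0.735, 33.5 against 89.8 to 128), and HYP replicate 5 alone had reads for *Trpm1* (gap over range 1, 0.0998 CPM against 0).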

How the results depend on the processing

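Of the channel genes called by edgeR, 64 of 79 in PCC vs. WT, 43 of 54 in HYP vs. WT and 5 of 16 in PCC vs. HYP were called in each run that left out 1 sample, and 64, 40 and 3 under each scaling, under DESeq2, without the filter and with the replicate block.

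Leaving out 1 sample gave in PCC vs. WT 52 (without WT replicate 4) to 62 (without PCC replicate 1) higher channel genes against 61, 15 (without WT replicate 1) to 19 (without WT replicate 5) lower against 18, and a median of 1.30 (without WT replicate 5) to 1.68 (without WT replicate 2) against 1.45. In HYP vs. WT it gave 37 (without WT replicate 4) to 49 (without WT replicate 5) higher against 43, 8 (without HYP replicate 2) to 14 (without WT replicate 4) lower against 11, and a median of 1.07 (without WT replicate 5) to 1.42 (without WT replicate 2) against 1.23. In PCC vs. HYP it gave 5 (without HYP replicate 4) to 15 (without PCC replicate 1) higher against 13, 0 (without HYP replicate 3) to 6 (without PCC replicate 5) lower against 3, and a median of 0.69 (without PCC replicate 4) to 0.94 (without HYP replicate 5) against 0.85. For the partner lists together it gave 23 to 26 higher (25) and 4 to 5 lower (5) in PCC vs. WT, 17 to 20 higher (18) and 0 to 2 lower (2) in HYP vs. WT, and 4 to 8 higher (6) and 0 to 3 lower (2) in PCC vs. HYP.

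Scaling by the summed listed counts gave 9 lower channel genes and a median of 1.95 in PCC vs. WT, 2 lower and 1.70 in HYP vs. WT, and 1 lower in PCC vs. HYP, with 1, 0 and 1 lower partners. It turned Clic1, PCC vs. WT, from -0.36 to 0.14 and Itpr3, HYP vs. WT, from -0.44 to 0.0215, neither called. By its construction this scaling sets the listed totals equal and moves genes upward in these comparisons. Scaling to the library totals gave 1 lower channel gene and a median of 1.08 in PCC vs. HYP, and 2, 0 and 1 lower partners in the same order. The authors' size factors shifted the median of all genes by -0.06, -0.04 and 0.11.

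DESeq2 gave 10 lower channel genes in PCC vs. HYP and 9 lower partners in PCC vs. WT. No filter gave 5 lower channel genes in PCC vs. HYP, and at least 10 counts in every sample gave 0 lower partners in HYP vs. WT. Adjusting over the listed genes only, a smaller family, gave 20 lower channel genes in HYP vs. WT, 30 higher and 10 lower in PCC vs. HYP, 8 and 6 lower partners in PCC vs. WT and HYP vs. WT, and 12 higher partners in PCC vs. HYP. Where the construction does not show it, the cause was not tested.

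With the replicate block PCC vs. HYP gave 3 higher (*Asic1*, *Cacna2d2* and *Hcn4*) and 0 lower channel genes, 2 higher and 0 lower partners, and HYP vs. WT 0 lower partners. Deviations from the group means of samples with the same number had correlations of low size (r -0.132 to 0.2 in PCC vs. WT, -0.116 to 0.29 in HYP vs. WT and -0.2 to 0.224 in PCC vs. HYP, best with the own number for 4, 4 and 1 of 10), and no pairing of animals by number was assumed.

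Genes unlisted in a table have no value there, and nothing is known here of the channel genes that no table lists. Low-count genes such as *Cacna2d4*, *Kcnb2*, *Cacng2*, *Kcnj3* and *Hcn4* rest on few reads in WT. *Cacna2d4*, with the largest changes against WT, had 3, 8, 3, 5 and 1 reads there. *Kcnj3*, with the largest change in PCC vs. HYP, had 1, 2, 9, 0 and 6 reads in HYP.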
